A study of Mus musculus with 5 samples.

Results

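The unfolded protein response and the integrated stress response were examined through 32 genes chosen by symbol for their roles in these pathways, among 55250 rows with a gene symbol. The RNA was that of sorted cells labelled PMN-MDSC (polymorphonuclear myeloid-derived suppressor cells, neutrophil-lineage cells that restrain T cells), taken from tumor (2 libraries, numbers 2 and 3) or lung (3 libraries, numbers 1, 2 and 3) of wild-type mice. No treatment, knockout or transgene is named for any of them, and the sources used here give neither strain, age or sex nor the tumor model or the sort markers. Each library is stated to come from at least 2000000 cells and 20000000 paired reads, and since separate animals are not stated, the spread that p-values rest on here may be technical.

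Levels are TPM (transcript abundance corrected for length and scaled to a total of 1000000 per library), which keep no read counts, so the depth behind each value is unknown. A difference is the mean log2(TPM + 1) of tumor minus that of lung, ± SE. Adjusted p-values come from limma, by Benjamini-Hochberg over the 16387 genes whose mean reached 1 TPM. Calls required an adjusted p below 0.05 together with a 1.5-fold change or more on that scale. With 2 libraries against 3, an exact permutation test of a single gene cannot go below p = 0.1.

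Proteins bound for secretion or for membranes fold in the endoplasmic reticulum (ER), where chaperones and disulfide isomerases assist them and ER-associated degradation removes those that fail. When unfolded protein accumulates, 3 membrane sensors respond: Ern1 (IRE1) splices the mRNA of the transcription factor Xbp1, Atf6 is cut to release a transcription factor, and Eif2ak3 (PERK) phosphorylates the translation factor eIF2. Phosphorylated eIF2 slows most translation but favours that of Atf4, and other eIF2 kinases feed the same integrated stress response. In myeloid-derived suppressor cells these pathways are known for a part in their suppressive activity. Gene-level TPM shows neither Xbp1 splicing, nor cleavage of Atf6, nor phosphorylation.

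The tumor and lung libraries differed in markers of cell types, and these values stand beside every result here. Of 20 pan-leukocyte markers all 20 were lower in tumor, with sums of 818 and 2204 TPM in tumor replicates 2 and 3 and of 15782 to 16855 TPM in lung, and of 16 neutrophil markers all 16 were lower, summing to 1197 and 4050 TPM in the tumor libraries and to 38247 to 64243 TPM in those of lung. Of 15 tested epithelial markers 14 were higher, with sums of 6836 and 6889 TPM in tumor and of 60.7 to 127 TPM in lung, and fibroblast markers (6 of 10 higher, 0 lower) summed to 1270 and 232 TPM in tumor and to 25.8 to 33.2 TPM in lung. Macrophage markers (6 of 10 higher, 3 lower) summed to 1184 and 2768 TPM in tumor and to 1114 to 1242 TPM in lung. Apoe alone was at 696 and 1640 TPM in tumor and at 399 to 470 TPM in lung. The similar sums hide opposite directions. C1qa was higher, at 137 and 309 TPM in tumor and at 6.13 to 15.6 TPM in lung. Csf1r was lower, at 49.4 and 149 TPM in tumor and at 396 to 460 TPM in lung. B and plasma cell markers (1 of 8 tested higher, 7 lower) summed to 178 and 168 TPM in tumor and to 302 to 699 TPM in lung. Sdc1, the 1 that was higher, made up most of the tumor sums, at 175 and 152 TPM, with 1.43 to 6.1 TPM in lung. Endothelial markers (10 of 10 lower) summed to 20.5 and 36.1 TPM in tumor and to 240 to 461 TPM in lung, and lung epithelial markers (1 of 8 tested higher, 7 lower) to 3.67 and 5.37 TPM in tumor and to 156 to 834 TPM in lung. Foxj1, the 1 lung epithelial marker that was higher, held 3.51 and 4.25 TPM of the tumor sums. Apoe, C1qa, Csf1r, Sdc1 and Foxj1 were named after their values were seen. Sftpa1, Scgb3a2, Bpifa1, Lamp3 and Tnfrsf17 were listed at 0 in both tumor libraries. Of these, Lamp3 and Tnfrsf17 were under 1 TPM in every lung library as well and were not tested. The libraries labelled tumor thus held markers of neutrophils, the lineage of their labelled cell type, at lower levels than the lung libraries. The part of the cell type markers in the results below was not tested. In bulk RNA, fewer cells of a type and less RNA per cell cannot be told apart.

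**Figure D1:**
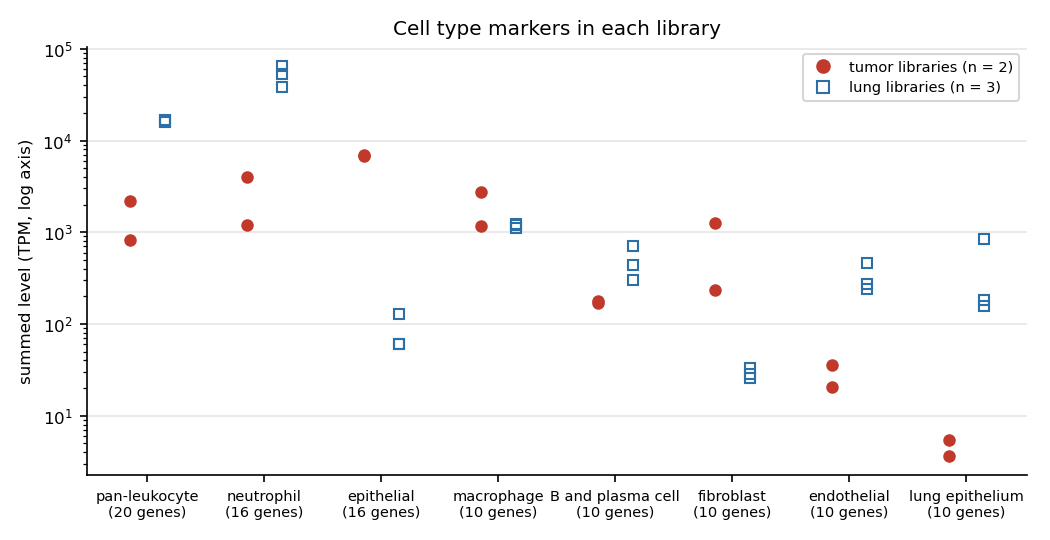
Summed TPM (log axis) of 8 lists of cell type markers in each library, tumor libraries as filled circles and lung libraries as open squares. Pan-leukocyte sums were 818 and 2204 TPM in tumor and 15782 to 16855 TPM in lung, whereas epithelial sums were 6836 and 6889 TPM in tumor and 60.7 to 127 TPM in lung.

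All 32 genes passed the filter on low values. In tumor, 14 were called higher and 9 lower, where 58.6% of all tested genes were called, 31.6% higher and 27% lower. Calls differed between role groups, which were drawn up with earlier results of these data known. Of 6 transcription factors 2 rose and 2 fell, and of 3 sensors 1 fell. Further lists, given below, did not repeat the falls: 6 of 21 other degradation genes were higher and 5 lower. Of 15 amino acid supply genes linked to Atf4, 11 were higher and 2 lower. Of 13 ER chaperones, cofactors and isomerases 12 rose and 1 fell (median 1.55), of 5 degradation genes 2 fell and 0 rose (median -0.56), and of 5 Atf4 branch effectors 3 fell and 0 rose (median -1.87), beside a median of 0.02 over all tested genes. These directions are relative to all transcripts of a library. Centring on 20 pan-leukocyte genes adds 3.48 to the difference of every gene and sets the median of all tested genes at 3.5. On that scale 30 of the 32 were higher and 0 lower, beside 14191 of 16387 tested genes higher and 102 lower. Tumor and lung values did not overlap for 28 of the 32 genes, beside 75.6% of tested genes, with tumor above for 16 (39.9% of tested genes) and below for 12 (35.7%).

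**Figure D2:**
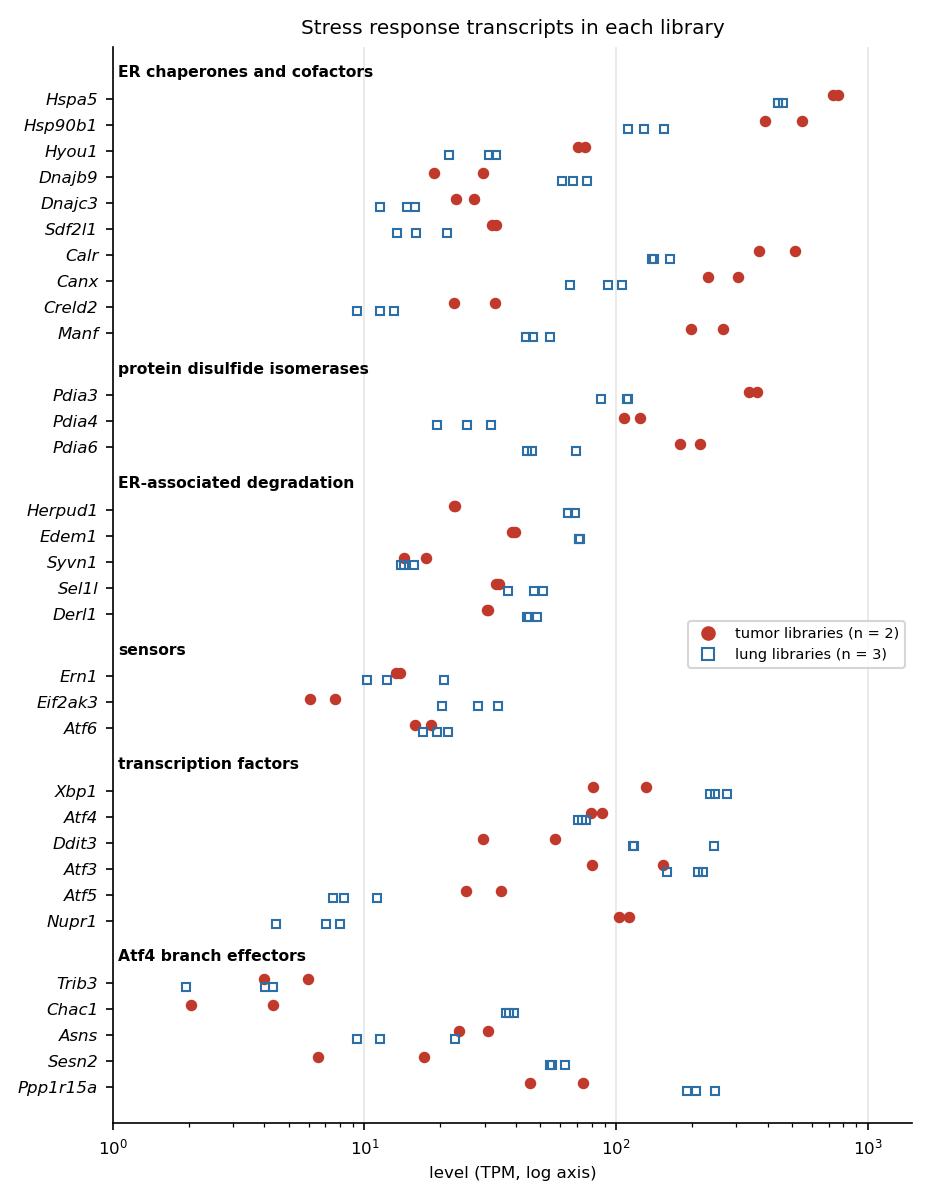
Level of each of the 32 genes (TPM, log axis) in the 2 tumor libraries (filled circles) and the 3 lung libraries (open squares), grouped by role. Chaperone and isomerase levels lay to the right in tumor except for Dnajb9, at 18.9 and 29.7 TPM in tumor and 61.1 to 76.5 TPM in lung.

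**Figure D3:**
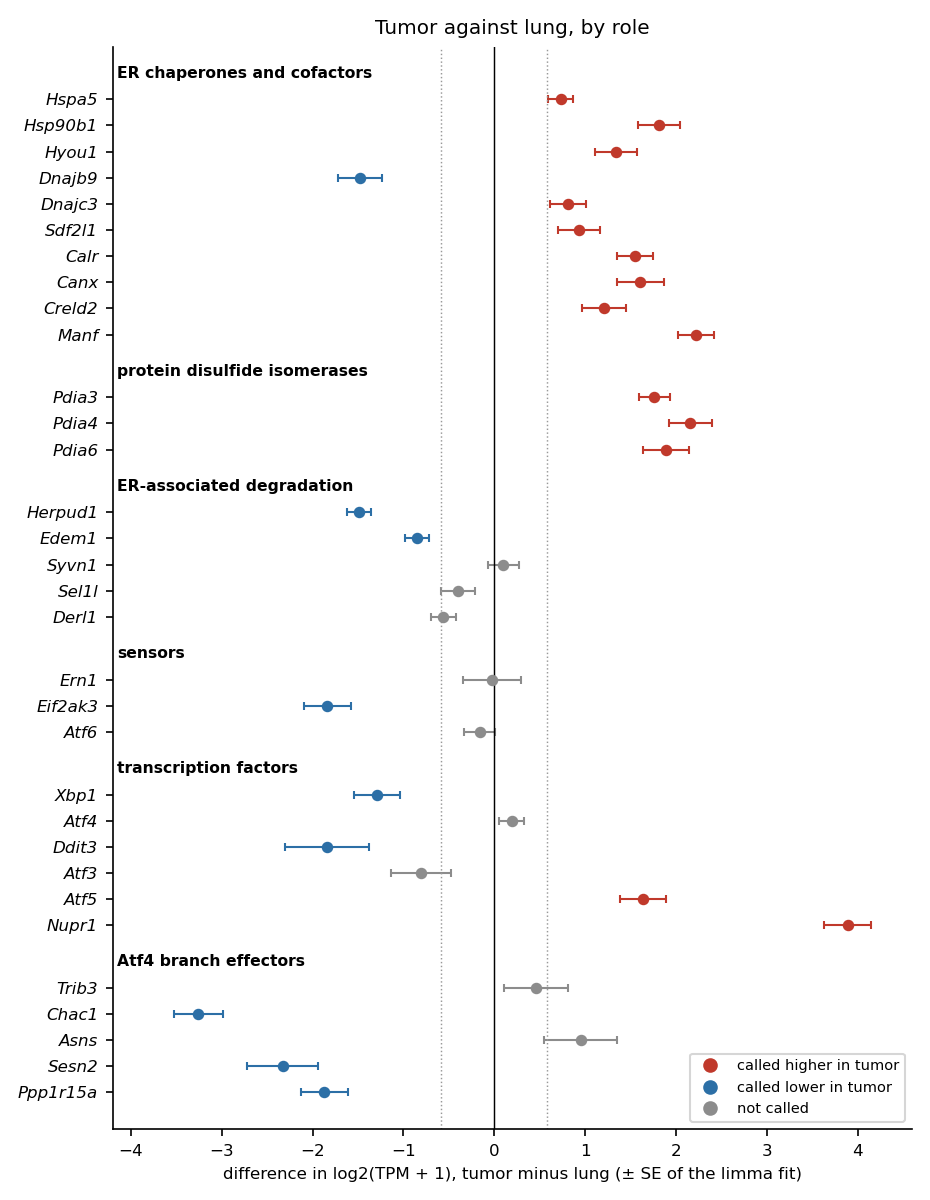
Difference in log2(TPM + 1), tumor minus lung, with the SE of the limma fit, for each of the 32 genes by role; dotted lines mark 1.5-fold, and colours mark the call. The calls run from Nupr1 at 3.89 to Chac1 at -3.26.

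The chaperones and isomerases made up a larger part of the set in tumor. They summed to 3283 and 2722 TPM in tumor and to 1259, 1109 and 1193 TPM in lung, which was 82.4% and 76.2% of the summed TPM of the 32 genes in tumor and 51.1%, 43.3% and 47.1% in lung. Degradation genes took 3.61% and 3.95% in tumor and 9.85%, 9.19% and 9.9% in lung, and Atf4 branch effectors took 2.28% and 3.45% in tumor and 12.6%, 14.4% and 12.1% in lung. The summed chaperones and isomerases were 22.8 and 19.3 times the summed degradation genes in tumor and 4.71 to 5.18 times in lung, so on this ratio within a library the tissues did not overlap. The set as a whole held 0.399% and 0.358% of TPM in tumor and 0.247% to 0.257% in lung.

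Hspa5, which encodes BiP, the Hsp70 chaperone of the ER and the protein that holds the sensors inactive, was the most abundant of the 32 in the mean of either tissue. It was at 762 and 727 TPM in tumor and at 441, 462 and 442 TPM in lung, without overlap. Its difference was 0.73 ± 0.14, or 1.66-fold (limma adjusted p = 0.00805), the smallest among the genes that rose. It missed the threshold when values were centred on the median gene (0.54, adjusted p = 0.0582).

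Hsp90b1, the ER member of the Hsp90 family (GRP94), was at 546 and 391 TPM in tumor and at 129, 112 and 155 TPM in lung, a 3.55-fold difference in means (1.81 ± 0.23, adjusted p = 0.00278). The ratio of Hsp90b1 to Hspa5 was 0.716 and 0.537 in tumor and 0.244 to 0.35 in lung, without overlap. Hsp90b1 shares 10.3% of its exonic bases in GENCODE M21 with 1810014B01Rik on the opposite strand, and the sources used here do not say whether quantification used strand. On the same strand it shares 3.3% with Gm25745 and 2.08% with Gm15344. Calr, the calcium-binding lectin calreticulin, was at 515 and 370 TPM in tumor and at 164, 139 and 142 TPM in lung (1.55 ± 0.20, adjusted p = 0.00295). Canx, its membrane-bound partner calnexin, was at 305 and 232 TPM in tumor and at 106, 65.7 and 92.5 TPM in lung (1.61 ± 0.26, adjusted p = 0.00561). Calr and Canx serve the same cycle, in which glycoproteins are held until they fold, and both stood above every lung library in both tumor libraries. The Canx call ended without tumor replicate 2 (adjusted p = 0.0529).

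Manf, a small secreted protein that binds BiP, showed the largest rise among the chaperones and cofactors. It was at 266 and 198 TPM in tumor and at 54.8, 46.8 and 43.9 TPM in lung, 4.78-fold (2.22 ± 0.20, adjusted p = 0.00146). Manf shares 4.71% of its exonic bases in GENCODE M21 with 4930524O07Rik and 4.14% with Dcaf1, both on the opposite strand. Hyou1, a nucleotide exchange factor of BiP, was at 75 and 70.7 TPM in tumor and at 33.2, 21.7 and 31.2 TPM in lung (1.34 ± 0.23, adjusted p = 0.00632, and 0.0554 without tumor replicate 2). Creld2, an ER protein induced by stress, was at 33 and 22.6 TPM in tumor and at 13.1, 9.38 and 11.5 TPM in lung (1.21 ± 0.24, adjusted p = 0.0105, and 0.0696 without tumor replicate 2). All of these lay above every lung library in both tumor libraries.

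Smaller rises were seen for Sdf2l1 and Dnajc3, cofactors of BiP. Sdf2l1 was at 32 and 33.4 TPM in tumor and at 21.3, 13.5 and 16 TPM in lung (0.93 ± 0.23, adjusted p = 0.0191). Dnajc3, a J-domain protein known as p58IPK, was at 27.3 and 23.1 TPM in tumor and at 15.9, 11.5 and 14.7 TPM in lung (0.81 ± 0.20, adjusted p = 0.0207). Both calls rested on single libraries: without tumor replicate 2, tumor replicate 3 or lung replicate 3 the adjusted p was 0.0964, 0.0973 and 0.067 for Sdf2l1 and 0.118, 0.06 and 0.0553 for Dnajc3.

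Dnajb9 (ERdj4), another J-domain cofactor of BiP, moved the other way from the rest of its group. It was at 18.9 and 29.7 TPM in tumor and at 67.2, 76.5 and 61.1 TPM in lung (-1.48 ± 0.24, adjusted p = 0.00554, and 2 when centred on pan-leukocyte genes). Hspa5 was 40.4 and 24.5 times Dnajb9 in tumor and 6.03 to 7.24 times in lung. Dnajb9 is known as a target of spliced Xbp1 that helps degradation and restrains Ern1.

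The 3 disulfide isomerases, which form and rearrange disulfide bonds, all rose. Pdia3 (ERp57), which works with calreticulin and calnexin on glycoproteins, was at 364 and 336 TPM in tumor and at 112, 87.5 and 111 TPM in lung (1.76 ± 0.17, adjusted p = 0.00169). Pdia4 (ERp72) was at 124 and 108 TPM in tumor and at 31.7, 19.5 and 25.6 TPM in lung, 4.53-fold (2.16 ± 0.24, adjusted p = 0.00208). Pdia6 (P5), an isomerase that also acts on the sensors, was at 215 and 179 TPM in tumor and at 69.5, 44.3 and 46.2 TPM in lung (1.89 ± 0.25, adjusted p = 0.00314). These 3 calls held in every alternative tried, with differences from 1.56 to 2.32 outside the pan-leukocyte centring.

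Many ER chaperone genes carry an ER stress response element in the promoter, bound by cleaved Atf6 together with NF-Y and also by Xbp1. The letters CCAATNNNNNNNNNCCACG were searched on both strands in RefSeq promoter windows (GRCm38.p6, 250 bases before to 50 after the annotated start), of which 28 of the 32 genes have at least 1. They stood in 39 of 32851 windows (0.119%), and 8 of the 28 genes had them. Of these 8, 7 rose and Syvn1 did not pass (median 1.38), whereas of the 20 with a window and no such match 5 rose and 9 fell (median -0.60). The genes were chosen by role, which is not independent of this element. Among 7 tested genes outside the set that hold it, 3 were higher and 1 lower (median 0.60). The matches are printed below with 12 bases on each side, 5′ to 3′ on the gene's strand and with the element in capitals, since 7 of the 12 chaperones and isomerases that rose hold one; Sdf2l1, Pdia3 and Pdia4 rose and have a window without it, and Manf and Hyou1 have no window. CGTGG first means that the match lies on the opposite strand.
Hspa5, chr2:34772013-34772055 (+): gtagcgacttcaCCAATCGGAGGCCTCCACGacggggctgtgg
Hsp90b1, first match, chr10:86705626-86705668 (-): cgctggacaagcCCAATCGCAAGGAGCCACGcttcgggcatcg
Hsp90b1, other match, chr10:86705521-86705563 (-): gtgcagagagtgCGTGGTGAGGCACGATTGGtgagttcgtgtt
Calr, chr8:84847063-84847105 (-): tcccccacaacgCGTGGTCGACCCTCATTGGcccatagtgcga
Canx, chr11:50325788-50325830 (-): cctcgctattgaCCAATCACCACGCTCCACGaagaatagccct
Pdia6, chr12:17266479-17266521 (+): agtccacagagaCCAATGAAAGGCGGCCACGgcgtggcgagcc
Dnajc3, chr14:118937815-118937857 (+): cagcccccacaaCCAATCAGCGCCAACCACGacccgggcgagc
Creld2, chr15:88819508-88819550 (+): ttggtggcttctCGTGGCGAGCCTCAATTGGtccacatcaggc
Syvn1, chr19:6046520-6046562 (+): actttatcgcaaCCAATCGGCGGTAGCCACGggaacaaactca

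The matches of Hspa5 and Syvn1 ended 46 and 25 bases before the annotated start, and the other matches ended 79 to 193 bases before it. The whole window of Hspa5 is given as an example, with its 1 exact match in capitals.
Hspa5, chr2:34771840-34772139 (+): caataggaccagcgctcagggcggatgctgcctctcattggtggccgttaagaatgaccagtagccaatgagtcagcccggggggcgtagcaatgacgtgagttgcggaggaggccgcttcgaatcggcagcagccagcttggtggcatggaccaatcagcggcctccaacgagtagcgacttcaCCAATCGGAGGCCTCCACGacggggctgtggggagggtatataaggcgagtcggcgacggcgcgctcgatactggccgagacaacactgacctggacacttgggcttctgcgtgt

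Genes of ER-associated degradation did not follow the chaperones. Herpud1, a membrane scaffold of the ubiquitin ligase complex, was at 22.7 and 22.8 TPM in tumor and at 64.7, 68.4 and 64.4 TPM in lung (-1.49 ± 0.13, adjusted p = 0.00147). Edem1, which marks misfolded glycoproteins by trimming mannose, was at 38.7 and 39.6 TPM in tumor and at 71, 71 and 72 TPM in lung (-0.85 ± 0.13, adjusted p = 0.00469). Both fell, with libraries of a tissue close together and far from the other tissue, although centred on pan-leukocyte genes they were higher (1.99 and 2.63). Derl1, part of the channel through which substrates leave the ER, was at 30.7 and 31.1 TPM in tumor and at 44.4, 45.2 and 48.3 TPM in lung. Its adjusted p was under the limit (0.02) but its difference of -0.56 ± 0.14 was under 1.5-fold, so it was not called.

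The ligase and its adaptor did not pass. Syvn1 (Hrd1), the ubiquitin ligase itself, was at 17.5 and 14.3 TPM in tumor and at 15.7, 14 and 14.4 TPM in lung (0.10 ± 0.17, adjusted p = 0.624). Sel1l, which joins substrates to Hrd1, was at 34.2 and 33.4 TPM in tumor and at 47.1, 37.1 and 51.4 TPM in lung (-0.40 ± 0.19, adjusted p = 0.132). Centred on the median gene, Sel1l and Derl1 passed as lower (-0.59 and -0.75), so that 4 of the 5 degradation genes were lower. On that scale 5103 of all 16387 tested genes were lower, beside 4431 in the main fit. Herpud1 holds the second form of the ER stress response element, ATTGGNCCACG, found in 12 windows (0.0365%) and in no other of the 28 genes. Its ATTGG is the CCAAT of the first form on the opposite strand, and 1 base lies between it and CCACG.
Herpud1, chr8:94386365-94386399 (+): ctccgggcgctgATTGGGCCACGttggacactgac

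**Figure D4:**
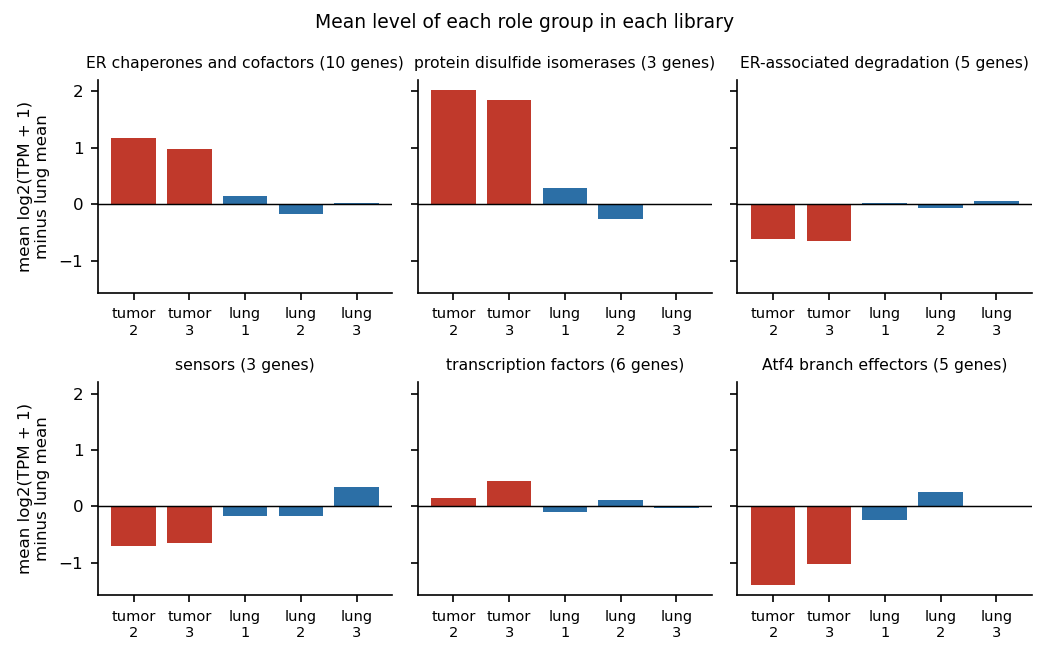
Mean log2(TPM + 1) of each role group in each library, minus the mean over the lung libraries; bars are single libraries, tumor in red and lung in blue. The isomerases stood at 2.03 and 1.84 in tumor, the degradation genes at -0.61 and -0.66, and the Atf4 branch effectors at -1.40 and -1.02.

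Of the 3 sensors 1, Eif2ak3, was called. It was at 6.09 and 7.61 TPM in tumor and at 20.4, 28.2 and 33.9 TPM in lung (-1.84 ± 0.26, adjusted p = 0.00379, and 1.64 when centred on pan-leukocyte genes). Eif2ak3 shares 485 bases, 8.05% of its exonic bases in GENCODE M21, with Gm43292 on the opposite strand. Ern1 was at 13.3 and 13.9 TPM in tumor and at 12.3, 10.2 and 20.8 TPM in lung (-0.02 ± 0.32, adjusted p = 0.961). Atf6 was at 18.4 and 15.9 TPM in tumor and at 19.5, 17.1 and 21.4 TPM in lung (-0.16 ± 0.17, adjusted p = 0.453). For both of these the tissues overlapped, and the SE leaves room for changes either way.

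The transcription factors of the pathway split. Xbp1, the factor activated by Ern1, was at 80.7 and 131 TPM in tumor and at 237, 247 and 277 TPM in lung (-1.29 ± 0.25, adjusted p = 0.00871). Ddit3 (CHOP), the factor tied to cell death under lasting ER stress, was at 29.7 and 57.2 TPM in tumor and at 117, 246 and 118 TPM in lung (-1.84 ± 0.46, adjusted p = 0.0202). Both fell, and centred on pan-leukocyte genes both were higher (2.19 and 1.64). The Ddit3 call ended without tumor replicate 2 (-1.38, adjusted p = 0.144), without lung replicate 3 (adjusted p = 0.0579) and in a fit blocked by title number (adjusted p = 0.0964). Ddit3 shares 68 bases, 3.97% of its exonic bases in GENCODE M21, with Mars on the opposite strand. Mars itself was higher in tumor (0.61, adjusted p = 0.0202).

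Atf4, the factor favoured when eIF2 is phosphorylated, was at 87.9 and 79.5 TPM in tumor and at 70.6, 75.7 and 73.4 TPM in lung (0.19 ± 0.14, adjusted p = 0.285). Its activity is set mostly by translation, which these data do not measure. Atf3, a repressor induced downstream of Atf4, was at 80.2 and 154 TPM in tumor and at 159, 211 and 221 TPM in lung (-0.81 ± 0.33, adjusted p = 0.0883). It was not called, and passed without tumor replicate 3 (-1.27, adjusted p = 0.0312) and when centred on the median gene (adjusted p = 0.0424).

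Atf5 and Nupr1 rose. Atf5, a relative of Atf4 linked to mitochondrial stress, was at 34.9 and 25.3 TPM in tumor and at 8.28, 7.48 and 11.2 TPM in lung (1.64 ± 0.25, adjusted p = 0.00443, and 0.0558 in a fit blocked by title number). Atf5 shares 4.11% of its exonic bases in GENCODE M21 with Il4i1 and with Nup62 on the opposite strand. Nupr1, a small chromatin protein induced by stress, was at 113 and 103 TPM in tumor and at 8.02, 7.05 and 4.45 TPM in lung. That 16.6-fold difference was the largest of the 32 (3.89 ± 0.26, adjusted p = 0.00105), and the call held in every alternative tried. Nupr1 was high where the epithelial sums were high, and the part of those cells in its level was not tested.

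The effectors downstream of Atf4 included the deepest falls. Chac1, which breaks down glutathione, was at 2.05 and 4.35 TPM in tumor and at 36.5, 39.4 and 37.6 TPM in lung, where its mean was 11.8-fold higher (-3.26 ± 0.27, adjusted p = 0.00132). Sesn2, a leucine sensor that restrains mTORC1, was at 6.51 and 17.2 TPM in tumor and at 54.7, 55.7 and 62.7 TPM in lung (-2.33 ± 0.39, adjusted p = 0.00621). Ppp1r15a (GADD34), the phosphatase subunit that reverses eIF2 phosphorylation, was at 45.6 and 73.9 TPM in tumor and at 208, 248 and 191 TPM in lung (-1.87 ± 0.26, adjusted p = 0.00355). These 3 fell without overlap, and no left-out library ended a call. Centred on pan-leukocyte genes, Chac1 (0.22, adjusted p = 0.747) and Sesn2 (1.15, adjusted p = 0.0684) were the 2 of the 32 that did not pass as higher, and Ppp1r15a was higher (1.61).

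Asns and Trib3, also downstream of Atf4, were not called. Asns, which makes asparagine, was at 30.9 and 23.8 TPM in tumor and at 9.32, 22.8 and 11.5 TPM in lung (0.95 ± 0.40, adjusted p = 0.0968). Lung replicate 2 stood near the tumor values, and without it Asns passed as higher (1.31, adjusted p = 0.0219). Trib3, a pseudokinase that feeds back on Atf4 and CHOP, was at 5.96 and 4 TPM in tumor and at 1.95, 4.34 and 4.04 TPM in lung (0.46 ± 0.35, adjusted p = 0.305). The ratio of Chac1 to Atf4 transcripts was 0.0233 and 0.0547 in tumor and 0.512 to 0.52 in lung, and that of Ddit3 to Atf4 was 0.338 and 0.719 in tumor and 1.61 to 3.25 in lung.

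Atf4 and its C/EBP partners bind a composite element, searched as TGATGNAA on both strands in the same windows. It stood in 1304 of them (3.97%) and in 6 of the 28 genes, whose calls were mixed: Nupr1 rose, Chac1 and Herpud1 fell, and Atf3, Asns and Trib3 did not pass (median -0.17). All but that of Trib3, which lies 3′ of the annotated start, are printed as before, to set the same letters beside opposite directions; a match that opens with TT lies on the opposite strand.
Nupr1, chr7:126625561-126625592 (-): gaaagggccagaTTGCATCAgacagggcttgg
Asns, chr6:7693213-7693244 (-): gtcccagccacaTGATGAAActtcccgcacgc
Atf3, chr1:191183424-191183455 (-): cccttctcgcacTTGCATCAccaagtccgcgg
Herpud1, chr8:94386305-94386336 (+): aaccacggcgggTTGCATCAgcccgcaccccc
Chac1, chr2:119351037-119351068 (+): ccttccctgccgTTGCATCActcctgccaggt
The letters TTGCATCA are the same in Nupr1, Atf3, Herpud1 and Chac1, of which 1 rose, 2 fell and 1 was not called. Over all genes with the element, 96 of 289 tested were higher and 95 lower (median -0.09).

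Within the set, the 2 tumor libraries differed from each other in a way that followed the calls. All 9 of the genes that fell were lower in tumor replicate 2 than in tumor replicate 3, by 1.92-fold for Ddit3, 2.12-fold for Chac1, 2.64-fold for Sesn2 and 1.62-fold for Xbp1 and Ppp1r15a, but only 1.01-fold for Herpud1 and 1.02-fold for Edem1. Of the 14 that rose, 13 were higher in replicate 2, and Sdf2l1 was not. Replicate 2 also had the lower pan-leukocyte sum (818 against 2204 TPM) and the higher fibroblast sum (1270 against 232 TPM), while the epithelial sums were 6836 and 6889 TPM. The part of these markers in the pattern was not tested. The order was also seen outside the set: neutrophil markers, all 16 called lower, summed to 1197 and 4050 TPM in replicates 2 and 3. Among pathway genes described below, Slc7a11 (4.68 and 18.3 TPM) and Jdp2 (23.3 and 34.4 TPM) fell with this order. Ngly1 (20 and 19.1 TPM) fell without it. Calu (261 and 169 TPM) rose with it, and Ero1l (172 and 227 TPM) rose without it. The order was thus not confined to the set, and how far it runs through all called genes was not counted.

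Other genes of the pathway were read as lists drawn up by function, with earlier results of these data known, 154 genes of which 146 were tested. Of these 91 were higher and 19 lower in tumor, with a median of 1.04. On the scale centred on pan-leukocyte genes none of the lists below had a gene called lower. That scale adds 3.48 to every difference and left 102 of all 16387 tested genes lower, so the absence says little about these lists. Other ER folding enzymes followed the chaperones, with 20 of 28 higher and 3 lower (median 1.46). Calu, a calcium-binding protein of the secretory pathway, was at 261 and 169 TPM in tumor and at 24.6, 20.9 and 23.5 TPM in lung (3.14 ± 0.23, adjusted p = 0.00116). Fkbp9, a prolyl isomerase (3.24), and Prkcsh, a subunit of glucosidase II (2.36), rose as well. Serp1 (-1.33), Cnpy3 (-0.95), a chaperone of Toll-like receptors, and Ero1lb (-1.01), an oxidase of the isomerases, fell. Among genes of ER translocation and N-glycosylation 20 of 24 were higher and 1, Sec11c, lower (median 1.18). Ddost, a subunit of the oligosaccharyltransferase, was at 123 and 93.5 TPM in tumor and at 24.1, 21.3 and 22.1 TPM in lung (2.21 ± 0.18, adjusted p = 0.00128). In the fit blocked by title number, 13 folding enzymes and 12 translocation genes were called higher, and without tumor replicate 2 13 translocation genes were called higher.

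Of further degradation genes 6 of 21 were higher and 5 lower (median 0.04), shares of 28.6% and 23.8% that lay near the 31.6% and 27% of all tested genes. Erlec1, a lectin that binds misfolded glycoproteins (1.96 ± 0.24, adjusted p = 0.00245), Vcp, the ATPase that pulls substrates from the ER membrane (1.18 ± 0.19, adjusted p = 0.00514), and Faf2, an adaptor of Vcp (1.10), rose. Ngly1, which strips glycans from extracted proteins (-1.38 ± 0.19, adjusted p = 0.0032), Herpud2 (-0.85) and Os9, another lectin (-0.61), fell. Called genes were fewer without tumor replicate 2, with 2 higher and 3 lower, without tumor replicate 3, with 3 higher, and with the block, with 2 higher and 2 lower.

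Genes of amino acid supply and charging, many of them known Atf4 targets, rose where Chac1, Sesn2 and Ddit3 fell. Of 20 cytosolic aminoacyl-tRNA synthetases 18 were higher and 0 lower (median 1.53). Kars, for lysine, was at 151 and 121 TPM in tumor and at 22.7, 15.3 and 23.6 TPM in lung (2.68 ± 0.25, adjusted p = 0.00153), and the phenylalanine subunits Farsa and Farsb rose by 2.14 and 1.79. Of 15 tested amino acid supply genes 11 were higher and 2 lower (median 1.78). Psat1, of serine synthesis, was at 50.5 and 36.3 TPM in tumor and at 4.16, 5.43 and 4.4 TPM in lung (2.96 ± 0.22, adjusted p = 0.00117), and Psph, of the same route, rose by 1.86, as did Slc1a4, a neutral amino acid transporter, by 2.93. The fallers were the subunits of the cystine importer: Slc7a11 was at 4.68 and 18.3 TPM in tumor and at 59.5, 83.3 and 98.3 TPM in lung (-2.93 ± 0.57, adjusted p = 0.00921), and Slc3a2 fell by 0.69. Without tumor replicate 2, and likewise without tumor replicate 3, 7 supply genes were called higher, and without lung replicate 3 1 was called lower.

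Other Atf4 or CHOP targets were mixed, with 5 of 12 higher and 3 lower (median 0.28), and 3 higher without tumor replicate 2. Ero1l, an oxidase that feeds the isomerases, was at 172 and 227 TPM in tumor and at 39.8, 57.5 and 47.8 TPM in lung (2.02 ± 0.23, adjusted p = 0.00213), and Vldlr (2.17) and Ddit4, an mTORC1 inhibitor (1.47), rose. Jdp2, a repressor related to Atf3, was at 23.3 and 34.4 TPM in tumor and at 112, 147 and 126 TPM in lung (-2.13 ± 0.23, adjusted p = 0.00195), and Map1lc3b (-1.55) and Gadd45a (-2.19) fell. Of the genes for eIF2, its kinases and its exchange factor eIF2B, 6 of 12 were higher and 3 lower (median 0.98). Eif2s1, the subunit that the kinases phosphorylate, was at 70 and 68.3 TPM in tumor and at 10.5, 9.25 and 13.8 TPM in lung (2.54 ± 0.21, adjusted p = 0.00128). The subunit gene Eif2s2 (1.64) and the exchange factor gene Eif2b3 (1.73) also rose. The fallers were the kinases Eif2ak1 (-0.78) and Eif2ak2 (-1.12) and the phosphatase subunit Ppp1r15b, at 16.7 and 19.6 TPM in tumor and at 54.3, 60.8 and 63.4 TPM in lung (-1.66 ± 0.16, adjusted p = 0.00164), the constitutive relative of Ppp1r15a.

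**Figure D5:**
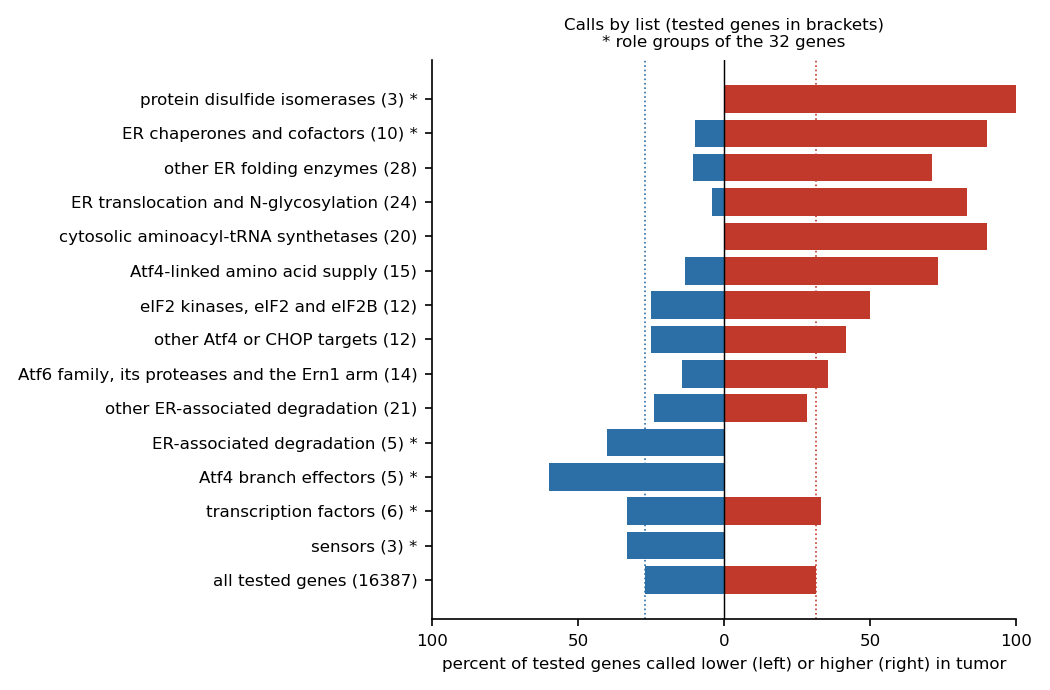
Percent of the tested genes of each list called lower (blue, left) or higher (red, right) in tumor; dotted lines mark all tested genes, at 27% lower and 31.6% higher. Isomerases, chaperones and aminoacyl-tRNA synthetases lie far to the right, and the Atf4 branch effectors have 60% lower and 0% higher.

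In the authors' deposited table Edem1 was the 1 gene of the 32 that met the limits of the series' design text, with an adjusted p of 0.0407. The authors' deposited table as a whole has 220 such rows, 162 higher and 58 lower in tumor, with folds computed here from the mean TPM. It has 34956 rows with a p-value, counted before rows with dates as symbols were left out.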

How the data were processed

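RNA of 2 tumor and 3 lung libraries was compared. The authors ran Salmon 0.9.1, per the series' design text, against GENCODE mouse release M24 transcripts and deposited TPM, which sum to 1000000 per library; as a share of the total, a rise in some transcripts lowers others. The deposited p-values and false discovery rates were used for the authors' calls alone, and their fold column was not used. Of 55276 rows, 26 with spreadsheet dates as symbols (0.065% to 0.0826% of TPM) were left out. Depth is unknown, so precision rests on the spread between libraries.

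Differences in log2(TPM + 1) were fitted with limma 3.58.1 in R 4.3.3 (empirical Bayes with intensity trend, two-sided) on all 5 libraries and the 16387 genes whose mean reached 1 TPM. The fit was first tested on simulated data. A fold change on this scale understates that of low genes. Folds are ratios of mean TPM. The 32 genes, the role groups and all lists were chosen with earlier results of these data known. All 32 genes are named, with up to 3 higher and 3 lower genes of smallest p from each pathway list. Promoter windows are those of RefSeq (GRCm38.p6) and exon overlaps those of GENCODE M21 (GRCm38), matched by symbol. Alternatives, 16 in all, changed pseudocount, filter, scaling, variance model, fold limit or block, or left out a library.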

Additional observations from a re-analysis of the deposited data

How the results depend on the processing

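Of the 32 genes, Nupr1, Hsp90b1, Calr, Manf, Pdia3, Pdia4 and Pdia6 kept their call and direction in all 16 alternatives. No gene that fell could do so, since the lowest difference was -3.26 and the pan-leukocyte centring adds 3.48. In the other 15 alternatives Chac1, Sesn2, Ppp1r15a, Herpud1, Xbp1 and Eif2ak3 kept their call and direction as well. Centring on 20 pan-leukocyte genes raised every difference by 3.48, with 14191 genes called higher and 102 lower; of the 32 genes 30 were higher and 0 lower, with 0 degradation genes and 0 Atf4 branch effectors lower. Differences that changed sign there were 3.46 (Ern1), 1.64 (Eif2ak3), 3.32 (Atf6), 2.19 (Xbp1), 1.64 (Ddit3), 2.67 (Atf3), 2 (Dnajb9), 1.99 (Herpud1), 2.63 (Edem1), 3.08 (Sel1l), 2.92 (Derl1), 0.22 (Chac1), 1.15 (Sesn2) and 1.61 (Ppp1r15a). TPM rescaled without mitochondrially encoded genes moved the median of all genes to 0.13, and centring on the median gene to -0.18. Genes not called outside the pan-leukocyte centring changed sign near 0: Ern1 to 0.1 without mitochondrially encoded genes and to 0.01 without tumor replicate 2 (range over left-out libraries -0.22 to 0.26), Atf4 to -0.01 and Syvn1 to -0.09 on the median gene, and Syvn1 to -0.04 without tumor replicate 2 (range -0.04 to 0.24). Degradation genes called lower were 4 on the median gene and 1 at a fold limit of 2. Leaving out 1 library at a time gave 6285 to 8848 genes called, 2831 to 4179 of them lower; 9 to 15 of the 32 genes called higher; and 7 to 12 chaperones and isomerases called higher. The lowest of each of these came without tumor replicate 2. In these fits a lone tumor library is assumed to vary like the lung libraries. A replicate block by title number left 7111 genes called, with 10 of the 32 genes higher and 7 lower; besides Ddit3 and Atf5, the calls of Hspa5, Dnajb9, Dnajc3 and Creld2 ended (adjusted p = 0.073, 0.0579, 0.0803 and 0.0606). Beyond the left-out libraries given with each list, counts moved over 1.5 times for other degradation genes (from 6 to 3 higher and from 5 to 1 lower at a fold limit of 2, 3 lower without mitochondrially encoded genes, 2 and 2 with the block), other Atf4 or CHOP targets (from 5 to 2 higher at a filter of 5 TPM, 3 with the block) and amino acid supply (from 2 to 1 lower without mitochondrially encoded genes, at a fold limit of 2 and with the block). The numbers are shared by 2 libraries of each tissue, and the sources used here do not state that these are pairs. The main fit did not take them as pairs. Their deviations correlated at 0.0506 across genes. That value cannot exclude pairs, since the 2 tumor libraries also differed in marker sums. TPM keep no depth, so no limit from counting can be given. The cause of these changes was not tested.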

Other observations

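The remaining list of the pathway, the Atf6 family with its proteases and the Ern1 arm, had 5 of 14 tested genes higher (35.7%) and 2 lower (14.3%) in tumor (median 0.37), where 31.6% of all tested genes were higher and 27% lower, so the share higher lay near that of all genes. Mbtps1, the site-1 protease that cuts Atf6 in the Golgi, was at 78.6 and 71.6 TPM in tumor and at 18.9, 13.3 and 19.6 TPM in lung (2.08 ± 0.22, limma adjusted p = 0.00185). Creb3l2, a factor cut in the same way, was at 18.3 and 15.4 TPM in tumor and at 3.3, 3.28 and 4.23 TPM in lung (1.96 ± 0.19, adjusted p = 0.00169). Casp12, a caspase of the ER, was at 12.9 and 8.22 TPM in tumor and at 1.25, 0.247 and 0.428 TPM in lung (2.83 ± 0.37, adjusted p = 0.00293). The fallers were Map3k5 (ASK1), a kinase downstream of Ern1, at 8.3 and 12.1 TPM in tumor and at 60.9, 79.1 and 93.8 TPM in lung (-2.82 ± 0.26, adjusted p = 0.00155), and Bcl2l11 (Bim), a death gene induced by CHOP, at 16.1 and 19.1 TPM in tumor and at 70.5, 87.3 and 78.6 TPM in lung (-2.10 ± 0.17, adjusted p = 0.00128). Centred on pan-leukocyte genes, 13 of the 14 were higher and 0 lower, where 14191 of all 16387 tested genes were higher and 102 lower.

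Outside the set, 8 tested genes hold the second form of the ER stress response element, and 5 of them were higher and 2 lower in tumor (median 1.04). The largest differences were 2.14 for Lgalsl, 2.03 for Krtcap2, a subunit of the oligosaccharyltransferase, and -1.54 for Rbm39. These genes were named after their values were seen.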
